A study of Mus musculus with 6 samples.

Results

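A set of 6 genes that mark smooth muscle was followed across the cell types of the embryonic heart region: Myocd, Acta2, Tagln, Cnn1, Myh11 and Rgs5. Each was taken by its symbol and matched 1 gene, so the set is 6 of the 32285 genes in the deposited count table. The cells came from the microdissected cardiogenic region of wild type C57BL/6 mouse embryos at stage E10.5, and per the labels the tissue also held non-cardiac mesoderm, ectoderm and endoderm. In 3 samples the mothers had been pretreated with vehicle and had normal blood glucose. In the other 3 samples the mothers had received streptozotocin, which is toxic to pancreatic beta cells, and were hyperglycemic. All fathers were normal glycemic. The labels describe the libraries as a chromatin assay in a single field and as RNA in every other, and the values were read as RNA counts. The table pools 6 libraries, told apart by the number at the end of each cell barcode, and nothing used here ties a library to a mother. Streptozotocin was therefore not compared with vehicle, and the 6 libraries are given one by one without a group.

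Smooth muscle cells tighten vessels and hollow organs by sliding actin along a muscle-specific myosin. Their contractile genes share a switch: the DNA-binding factor SRF sits on CArG boxes near those genes, and its partner myocardin, the product of Myocd, turns them on. Myocardin is also made in heart muscle, and embryonic cardiomyocytes use several smooth muscle proteins for a time before adult cardiac isoforms take over. At this stage the vessels leaving the heart are only starting to gain a smooth muscle wall, from neural crest and heart field cells.

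By role, Myocd is the regulator. Acta2 encodes smooth muscle alpha-actin, the thin filament itself, and Tagln (transgelin, SM22) and Cnn1 (calponin) encode proteins that bind it. Myh11 encodes smooth muscle myosin heavy chain, the motor and the strictest marker of mature smooth muscle. Rgs5 encodes a regulator of G protein signalling that is known as a marker of pericytes, the mural cells of small vessels. In GRCm38 with the GENCODE M21 annotation, Myocd lies on chromosome 11 (65176561 to 65269989, minus strand), Acta2 on chromosome 19 (34241090 to 34255590, minus) and Tagln on chromosome 9 (45929619 to 45936058, minus). Cnn1 also lies on chromosome 9 (22099216 to 22109630, plus), Myh11 on chromosome 16 (14194535 to 14291372, minus) and Rgs5 on chromosome 1 (169655501 to 169695813, plus). Tagln overlaps 2 genes of the opposite strand, Pcsk7 and Gm48529. Whether the counting used strand is not given in the sources used here, so Tagln counts may include reads of these neighbours.

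The promoters of Acta2, Cnn1 and Rgs5 are shown because only these 3 members were in the RefSeq table of promoters used. Acta2 and Cnn1 had nearly the same profile over cell types and Rgs5 had another. Each run is the 250 bases before the RefSeq start in GRCm38.p6, read 5′ to 3′ on the gene's own strand. Capitals mark matches to the CArG box with at most 1 of its 6 inner letters off.
Acta2, chr19:34255374-34255623, minus strand: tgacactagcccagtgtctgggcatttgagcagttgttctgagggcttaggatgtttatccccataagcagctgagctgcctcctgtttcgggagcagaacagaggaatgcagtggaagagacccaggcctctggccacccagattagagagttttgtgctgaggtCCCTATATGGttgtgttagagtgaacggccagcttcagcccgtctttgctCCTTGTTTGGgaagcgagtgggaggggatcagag
Cnn1, chr9:22099003-22099252, plus strand: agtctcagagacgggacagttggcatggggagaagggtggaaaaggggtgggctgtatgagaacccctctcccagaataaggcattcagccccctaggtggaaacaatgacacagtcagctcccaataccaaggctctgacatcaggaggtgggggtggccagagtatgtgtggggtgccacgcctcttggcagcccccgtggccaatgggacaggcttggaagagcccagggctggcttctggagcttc
Rgs5, chr1:169655251-169655500, plus strand: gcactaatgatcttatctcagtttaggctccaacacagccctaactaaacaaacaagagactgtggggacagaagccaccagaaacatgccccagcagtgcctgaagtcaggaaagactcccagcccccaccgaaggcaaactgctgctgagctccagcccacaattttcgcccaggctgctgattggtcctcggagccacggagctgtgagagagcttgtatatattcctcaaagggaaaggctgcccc
The Acta2 window held 2 near matches, CCCTATATGG starting 84 bases before the start and CCTTGTTTGG starting 34 bases before it, and each differed from the motif by 1 of its 10 letters. The Cnn1 and Rgs5 windows held none. The GENCODE M21 start of Acta2, 34255590, lies inside its window, so both matches fall within the gene as GENCODE draws it. That of Cnn1, 22099216, also lies inside its window. The motif reads the same on both strands. Of the 32851 windows of this length in the RefSeq table, 1.47% held a perfect CArG box. A perfect box or a match with 1 of the 6 inner letters off was held by 8.59%. A match describes letters only, and these data do not measure binding. Tagln, Myh11 and Myocd were not in that table.

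The table held 53362 barcodes, of which 35962 passed 2 limits: 2500 or more detected genes, and no more than 10% of UMIs (unique molecular identifiers, each marking a captured RNA molecule) from mitochondrial genes. Library totals ran from 200462921 to 248426458 UMIs, and the retained cells had a median of 32765 UMIs. A barcode sequence present in more than 1 library was carried by 283 retained cells (0.787%). Cells were sorted into 17 classes by marker genes, none of them a member: a cell needed 3 markers of a class with at least 2 UMIs each, and more of them than of any other class. This placed 27378 cells (76.1%), among them 3301 cardiomyocytes, 10681 crest mesenchyme cells, 1465 cushion mesenchyme cells, 3201 heart field mesoderm cells and 1060 epicardial cells. A gate is no proof of identity. Of the crest mesenchyme cells, 4234 had none of the Dlx markers on, and 31.2% passed at the minimum of 3 markers, against 3.15% of the cardiomyocytes. Of the heart field mesoderm cells 47.3% passed at that minimum. Levels are counts per 1000000 UMIs (CPM), summed over the cells of a class, with 95% exact Poisson intervals in parentheses that cover counting error only. The spread between the 6 libraries is given beside them. It mixes both treatments and says nothing on either. Levels of different genes are not compared with each other, since the counts are not scaled to length or capture.

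Heart muscle held most of the RNA of 4 of these smooth muscle genes. Cardiomyocytes were 9.18% of the retained cells and carried 88.6% of all Acta2 UMIs, 87.5% of Cnn1, 83.4% of Myocd and 61.1% of Tagln. They carried 40.5% of the 1100 Myh11 UMIs and 14.6% of Rgs5. After cardiomyocytes, cushion mesenchyme was the next highest of the 14 classes with at least 50 cells for Myocd, Acta2, Tagln, Cnn1 and Myh11, and it was the highest for Rgs5.

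**Figure D1:**
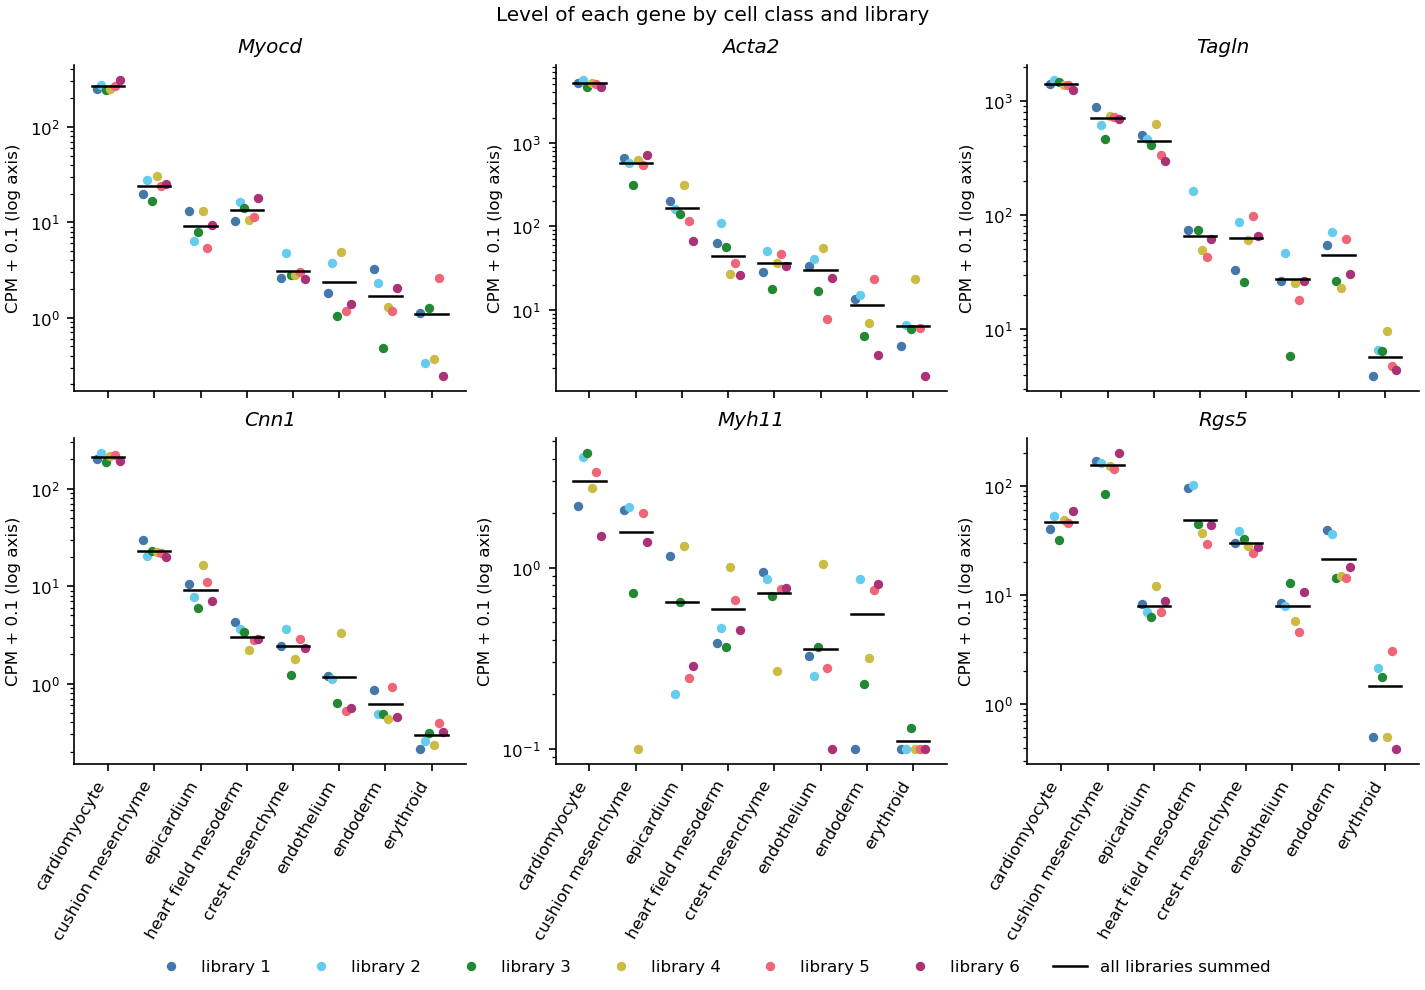
Level of each gene (CPM + 0.1, log axis) in 8 cell classes; points are the 6 libraries and black lines the summed level. Cardiomyocytes lie above cushion mesenchyme in all 6 libraries for the first 5 genes (Myh11 0 in cushion cells of library 4), and below it in all 6 for Rgs5.

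Myocd, the regulator, was measured in cardiomyocytes at 247, 276, 241, 248, 269 and 309.5 CPM in libraries 1 to 6. Crest mesenchyme gave 2.47 to 4.66 CPM over the same libraries, with a median of 2.72. The groups of values lay far apart in every library. Summed over libraries, Myocd stood at 266 CPM (263 to 268) in cardiomyocytes and 3.02 (2.85 to 3.19) in crest mesenchyme, a ratio of 88.0 (83.1 to 93.3), or 6.46 on the log2 scale. It was 7.77 with clusters in place of gates and 7.50 with a lead of 2 markers over any other class. Cushion mesenchyme followed at 23.9 CPM, with a library range of 16.5 to 30.3. Heart field mesoderm, gated for the progenitor pool that adds cells to the ends of the heart tube, stood at 13.2 CPM with a range of 10.1 to 17.9. The class was uneven over the clusters described below, with 30.2 CPM in its 715 cells of cluster 21 and 6.69 in its 1598 of cluster 23. Its summed level was above epicardium (9.05 CPM) in 4 of 6 libraries, so the order of these neighbours was not stable. Erythroid cells, taken as a class that should lack Myocd, gave 0.985 CPM from 97 UMIs in 31 of 1462 cells. Scrublet called 45 erythroid cells doublets, and the source of these UMIs was not tested.

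Acta2 in cardiomyocytes was 5151, 5620, 4647, 5226, 5108 and 4643 CPM in libraries 1 to 6, and in crest mesenchyme 28.5, 50.3, 17.8, 36.4, 46.4 and 33.7. The lowest cardiomyocyte value exceeded the highest crest value by far, and the ratio of the summed levels was 142 (140 to 144), or 7.15 on the log2 scale. With a gate that asked for a lead of 2 markers it was 8.07. Cushion mesenchyme came next at 577 CPM (571 to 584), with 308 in library 3 and 536 to 718 in the others. Epicardium followed at 164 CPM, with libraries from 67.5 to 312. Heart field mesoderm at 43.8 CPM and crest mesenchyme at 36.0 CPM could not be ordered, each being higher in 3 of 6 libraries. The level in erythroid cells was 6.25 CPM. Neurons gave 102 CPM, but the libraries ran from 1.30 to 309 and the top 5% of neurons held 97.6% of these UMIs. Whether cardiomyocyte RNA in the same droplets supplied them was not tested.

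Tagln was less restricted to heart muscle. It was 1407 CPM (1401 to 1413) in cardiomyocytes, with libraries from 1251 to 1524, and 708 CPM (701 to 715) in cushion mesenchyme, with libraries from 462 to 893. The ratio of cardiomyocytes to cushion cells was 1.99 (1.96 to 2.01) for Tagln, against 8.86 for Acta2, 9.16 for Cnn1 and 11.1 for Myocd. Epicardium, the outer cell sheet of the heart, gave 443 CPM with libraries from 299 to 632, and 91.3% of its cells had a Tagln UMI. Cardiomyocytes exceeded crest mesenchyme (62.3 CPM, libraries 25.9 to 97.6) by 22.6-fold (22.3 to 22.9). With a lead of 2 markers the log2 ratio was 5.17. Erythroid cells stood at 5.62 CPM.

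Cnn1 followed Myocd and Acta2 closely. Cardiomyocytes gave 204, 233, 188, 218, 221 and 192 CPM in libraries 1 to 6, and crest mesenchyme 2.33, 3.52, 1.11, 1.67, 2.80 and 2.19. The ratio of the summed levels was 91.0 (85.2 to 97.3), or 6.51 on the log2 scale, and 7.17 with a lead of 2 markers. Cushion mesenchyme stood at 23.0 CPM (21.8 to 24.3), epicardium at 9.09 and erythroid cells at 0.193.

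Of the 5 members that reached 10 CPM in cardiomyocytes or crest mesenchyme, 4 were at least 2-fold higher in cardiomyocytes (Acta2, Tagln, Cnn1 and Myocd) and none was 2-fold lower. Cnn1 and Myocd reached 10 CPM only in cardiomyocytes, so they could not have counted as lower. Over all 9230 genes at that level, 12.6% were 2-fold higher and 13.7% were 2-fold lower, and the median log2 difference was -0.25. The same 4 were higher in all 6 libraries, as were 32.1% of all genes. Myh11, below the minimum, was also higher in all 6 libraries, by 4.64-fold (3.96 to 5.44). The remaining gene, Rgs5, was 46.4 CPM in cardiomyocytes (libraries 31.7 to 58.1) and lay between 24.0 and 38.7 CPM in the crest mesenchyme of the libraries, higher in 5 of 6 libraries with a log2 ratio of 0.63. With clusters in place of gates that ratio turned to -0.14, and with every cell thinned to 5000 UMIs it reached 1.05.

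Detection per cell differed between the members. A UMI of Myocd was found in 93.5% of cardiomyocytes, 3.91% of crest mesenchyme cells and 2.12% of erythroid cells, whose median depths were 42299, 34954 and 65230 UMIs. With each cell thinned to 5000 UMIs, which left out no cell, the shares were 62.8%, 1.10% and 0.547%. Acta2 was found in 99.6% of cardiomyocytes, 19.6% of crest cells and 15.0% of erythroid cells, and after thinning in 98.3%, 5.91% and 1.71%. The median cardiomyocyte carried 195 Acta2 UMIs, and the range from the 10th to the 90th percentile was 47 to 472. Tagln was found in 97.4% of cardiomyocytes, 74.2% of cushion cells, 18.7% of crest cells and 6.63% of erythroid cells, and after thinning in 86.9%, 50.1%, 7.78% and 1.03%. Rgs5 was found in 24.2% of cardiomyocytes, 24.6% of crest cells and 2.46% of erythroid cells, and after thinning in 12.2%, 9.38% and 0.410%. In crest mesenchyme the top 5% of cells held 87.9% of the Acta2 UMIs and 90.1% of the Tagln UMIs.

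Within heart muscle the members split by chamber. Cardiomyocytes were divided by 2 or more markers into 1119 ventricular, 1055 atrial and 751 outflow cells, the last from the muscular outlet that leads to the great vessels. Each of these subclasses was a gate on markers such as Myl2, Sln or Sema3c, and 376 cardiomyocytes passed none.

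**Figure D2:**
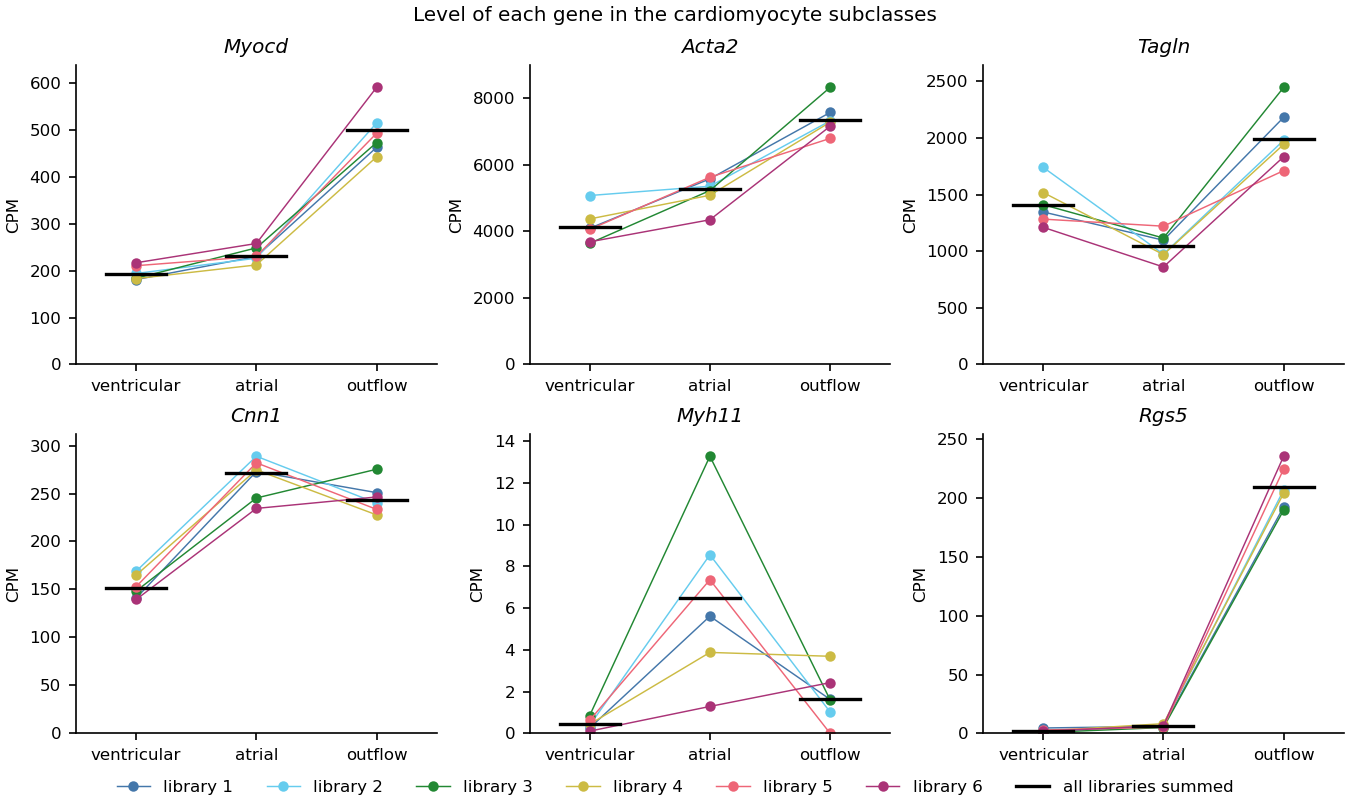
CPM of each gene in ventricular, atrial and outflow cardiomyocytes; each coloured line is a library and black bars are the summed levels. Myocd, Acta2, Tagln and Rgs5 are highest in outflow cells in all 6 libraries, Cnn1 is similar in atrial and outflow cells, and Myh11 peaks in atrial cells in 5 of 6.

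Rgs5 showed the widest difference between chambers. Ventricular cells gave 4.54, 0.961, 0.663, 1.89, 2.82 and 1.68 CPM in libraries 1 to 6, and outflow cells 193, 207, 190, 204, 225 and 236. No library came near to overlap, and the summed levels were 2.30 (1.94 to 2.71) and 210 CPM (205 to 215), a ratio of 91.2 (77.3 to 108), or 6.51 on the log2 scale. The log2 ratio was 7.11 without library 1 and 7.82 with the erythroid level subtracted. Atrial cells stood at 6.33 CPM, with libraries from 4.94 to 8.23. An Rgs5 UMI was present in 69.2% of outflow cells, 13.3% of atrial cells, 6.08% of ventricular cells and 2.46% of erythroid cells. At 5000 UMIs per cell these shares were 44.3%, 2.75%, 0.894% and 0.410%.

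Myocd in outflow cells was 463, 514, 473, 442, 493 and 590 CPM in libraries 1 to 6, above every ventricular value (181 to 217) and every atrial value (212 to 258). The outflow to ventricular ratio was 2.58 (2.51 to 2.64). Atrial cells were above ventricular cells in all 6 libraries, at 232 against 194 CPM. Acta2 followed the same order, from 4147 CPM in ventricular to 5281 in atrial and 7344 in outflow cells, and the outflow value was 1.77 times the ventricular one (1.76 to 1.78). Tagln did not follow this order. It was lowest in atrial cells at 1047 CPM, below ventricular cells (1412 CPM) in all 6 libraries, and highest in outflow cells at 1989 CPM. Cnn1 was lowest in ventricular cells at 151 CPM, below atrial cells (271 CPM) in all 6 libraries, while atrial and outflow cells (244 CPM) changed places between libraries.

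Of the 5 members at 10 CPM in outflow or ventricular cells, Myocd and Rgs5 were at least 2-fold higher in outflow cells and none was 2-fold lower. Rgs5 reached 10 CPM only in outflow cells, so it could not have counted as lower. Among the 8765 genes at that level 8.6% were 2-fold higher and 2.24% were 2-fold lower. All 5 were higher in outflow cells in each of the 6 libraries, as were 44.2% of all genes, and the median gene was higher by 0.15 on the log2 scale. Myh11, below the minimum, was 3.80-fold higher (2.32 to 6.33) and higher in 5 of 6 libraries, with a log2 ratio of 1.92. After thinning that ratio was 3.58, but then only 1 of 1119 ventricular and 5 of 751 outflow cells held a Myh11 UMI. Isl1 is among both the outflow markers and those of heart field mesoderm.

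Myh11 was scarce at this stage. Of the 35962 cells, 461 held any Myh11 UMI and 141 held at least 2. Of the 141, 63 were cardiomyocytes, 28 crest mesenchyme, 17 cushion mesenchyme and 18 ungated cells. Among cardiomyocytes, 42 were atrial, which is 3.98% of atrial cells (2.88 to 5.34, exact binomial 95% interval), against 0.268% of ventricular (0.055 to 0.781) and 0.932% of outflow cells (0.376 to 1.91). Of the 376 cardiomyocytes without a subclass, 11 held at least 2 Myh11 UMIs, or 2.93% (1.47 to 5.17), which overlaps the atrial interval. In libraries 1 to 6 the 42 atrial cells numbered 7, 13, 7, 4, 10 and 1. No erythroid cell held 2 UMIs. A count of 0 of 1462 allows a share of up to 0.205% when the limit is set at 3 counts, and up to 0.252% by the exact binomial interval.

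The summed atrial level was 6.48 CPM (5.77 to 7.25), with 5.61, 8.55, 13.3, 3.88, 7.35 and 1.29 in libraries 1 to 6, against 0.431 CPM (0.284 to 0.628) in ventricular cells. Library 3 was the highest and library 6 the lowest, and each of the 6 was above its own ventricular value. The signal sat in few cells: the top 5% of atrial cells, 53 cells, held 93.4% of the Myh11 UMIs. Myh11 in the 376 cardiomyocytes without a subclass was 4.64 CPM (3.61 to 5.88). Crest glia gave 1.47 CPM from 19 UMIs, of which library 4 (6.22 CPM) supplied most, and 0 UMIs in libraries 1 to 3.

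**Figure D3:**
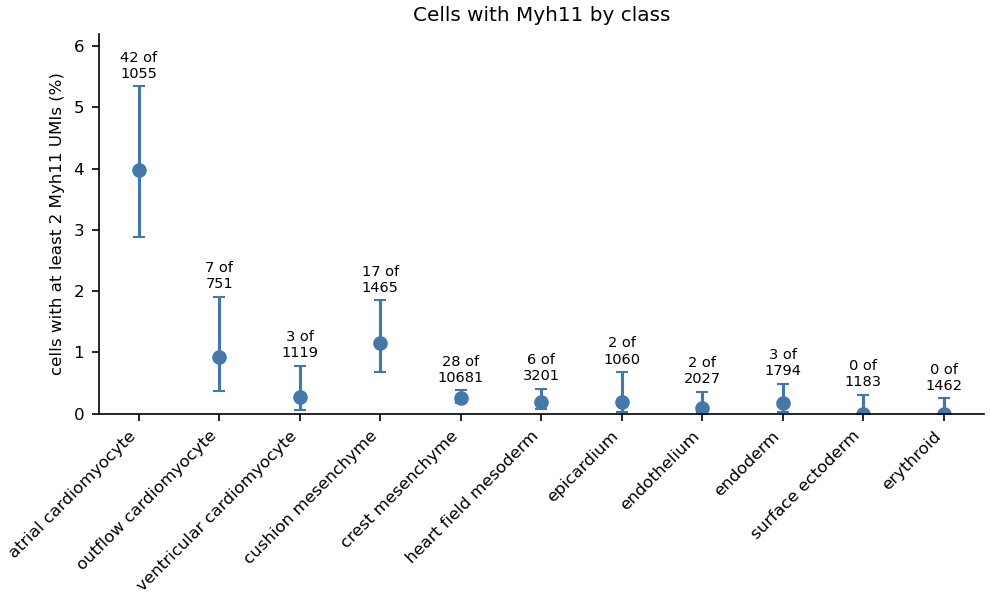
Share of cells with at least 2 Myh11 UMIs (percent, with exact binomial 95% intervals) in the classes and subclasses drawn, with the numbers of cells above. Atrial cardiomyocytes stand at 3.98%, above cushion mesenchyme at 1.16% and ventricular cardiomyocytes at 0.268%. Cardiomyocytes without a subclass (2.93%) and mural cells (1 of 23) are among the groups not drawn.

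The cells with 2 or more Myh11 UMIs were described by their other genes. They were chosen on Myh11 itself, so its own level in them is no result. The 17 cushion cells carried 4307 CPM of Acta2 (4157 to 4461), 5088 of Tagln, 232 of Cnn1, 299 of Rgs5 and 44.5 of Myocd. Cushion cells with no Myh11 UMI carried 470, 613, 18.2, 149 and 22.9 CPM of the same genes. Actg2, the enteric smooth muscle actin, was 148 CPM (121 to 178) in the former and 5.87 in the latter. The heart muscle gene Tnnt2 was 184 CPM in these 17 cells and 69.2 in the cushion cells with no Myh11 UMI. In the 42 atrial cells Tnnt2 stood at 4663 CPM. Tagln there was 2245 CPM against 960 in atrial cells without Myh11, Acta2 8670 against 5103, Cnn1 339 against 267 and Myocd 307 against 226. Rgs5 rested on 9 UMIs there and was not higher than the 6.26 CPM of cells without Myh11, and Des, the muscle filament desmin, 455 against 530 CPM. The 28 crest cells with Myh11 showed 170 CPM of Acta2 and 216 of Tagln, against 34.6 and 60.3 in crest cells without it. Their Rgs5 (18.4 to 37.1), Myocd (1.27 to 9.10) and Des (12.6 to 28.8) had wide intervals, and crest cells without Myh11 had 31.9 CPM of Des and 3.02 of Myocd. Tnnt2 was 16.4 CPM from 21 UMIs in the 28 cells and 8.18 in those without Myh11, and 3 of the 28 were called doublets by Scrublet. Cells of a library share their source, and these groups are too small for a value per library.

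Cushion mesenchyme, the cells that fill the swellings from which valves and the outlet septum form, was higher than crest mesenchyme for all 5 members at 10 CPM by at least 2-fold, against 10.6% of all genes, and none was 2-fold lower, against 2.1%. Cnn1 and Myocd reached 10 CPM only in cushion mesenchyme, so these 2 could not have counted as lower. Each of the 5 members was higher in all 6 libraries, as were 39.5% of all genes. Rgs5 was 170, 160, 83.7, 151, 141 and 200 CPM in libraries 1 to 6 of cushion cells, and 29.8, 38.7, 32.2, 27.7, 24.0 and 27.3 in crest cells. The lowest cushion value lay above the highest crest value, and the ratio was 5.11 (4.97 to 5.26). Acta2 was 16.0-fold higher, Tagln 11.4-fold, Cnn1 9.94-fold and Myocd 7.91-fold. These ratios depended on the gate: with a lead of 2 markers the log2 ratio was 5.17 for Acta2, which is more than 16.0-fold, and 4.40 in place of 3.51 for Tagln and 4.14 in place of 3.31 for Cnn1. It was 3.72 in place of 2.98 for Myocd and 3.02 in place of 2.35 for Rgs5. With clusters Cnn1 was at 3.91. Heart muscle markers were also higher in cushion than in crest mesenchyme. The median cushion cell had 46.9 CPM of the cardiomyocyte markers in sum, the median crest cell 0 and the median cardiomyocyte 11723. Among cells with no Myh11 UMI, Tnnt2 was 69.2 CPM in cushion and 8.18 in crest mesenchyme. The part of heart muscle RNA in the cushion levels was not tested. The class was uneven, with 34.0% of its cells holding 2 or more Rgs5 UMIs and its top 5% holding 55.8% of the Acta2 UMIs.

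Pairs of members in the same cushion cell were counted at equal depth. Of 493 cells with Acta2 after thinning to 5000 UMIs, 83.6% also had Tagln, against 33.1% of the cells without Acta2. Rgs5 was present in 56.2% of the Acta2 cells and in 15.6% of the others. Myocd was present in 12.6% and 5.14%, and Cnn1 in 19.5% and 4.53%. Of 140 cells with Cnn1, 87.9% had Tagln, against 46.1% of the cells without Cnn1.

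Clusters of the cells, made without the 6 members, showed where the members parted. There were 28 clusters, and 25 could be named from the markers. Counts in clusters are a description, since a cluster gathers cells of like expression.

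**Figure D4:**
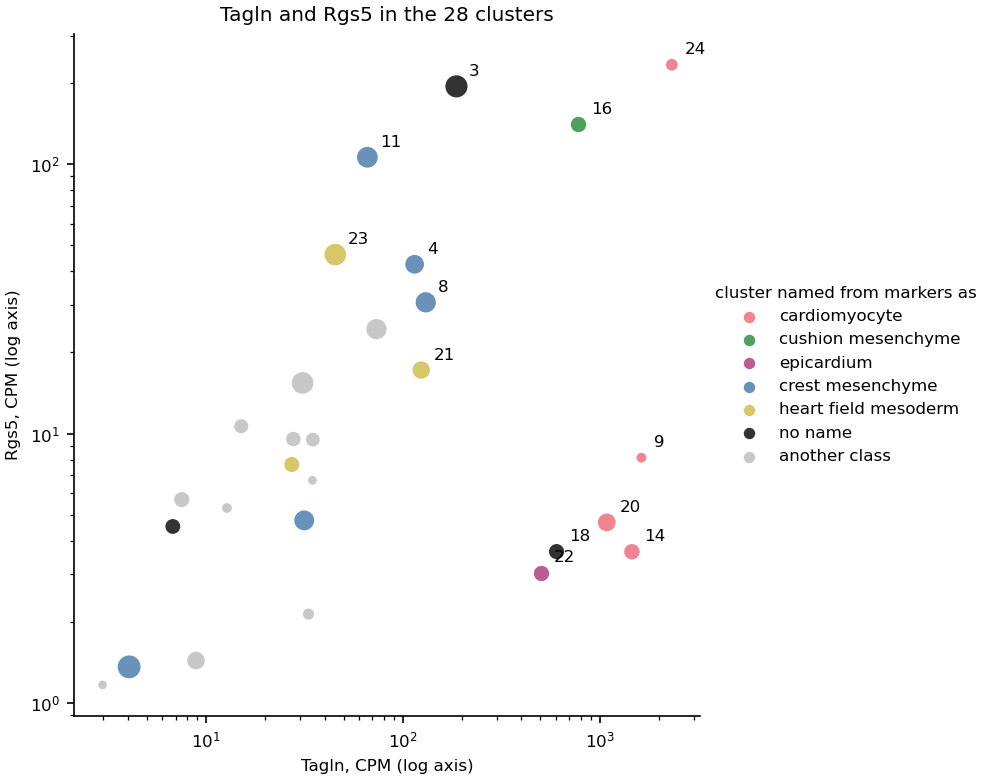
Summed Tagln (x, CPM, log axis) and Rgs5 (y, CPM, log axis) of the 28 clusters, with area by cell number and colour by the class that markers gave. Clusters 24, 16 and 3 are high for Rgs5, while clusters 22, 18, 14 and 20 combine at least 502 CPM of Tagln with Rgs5 below 5 CPM.

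Cluster 16, named cushion mesenchyme and led by Pdlim3, Igfbp7 and Hapln1, held 1056 cells with 660 CPM of Acta2, 778 of Tagln, 141 of Rgs5 and 12.4 of Myocd. Its Rgs5 ran from 31.6 to 219 CPM over libraries. Cluster 3, led by Tnc, Ppp2r2b and Ccbe1, could not be named. Its 2522 cells had 194 CPM of Rgs5 (165 to 226 over libraries) and 51.5 CPM of Myocd (30.3 to 58.7), with 281 of Acta2. It also held 109 gated cardiomyocytes, which supplied 6992 of its 22545 Acta2 UMIs and 1399 of its 4133 Myocd UMIs. The 890 ungated cells in it stood at 241 CPM of Rgs5 and 57.9 of Myocd. The 1180 cells in it that passed the crest gate carried 56.1% of all Myocd UMIs of crest mesenchyme, of which they were 11.0% of the cells. Cluster 11, named crest mesenchyme, had 106 CPM of Rgs5 and 2.07 of Myocd. The cushion gate spread over these clusters too. Its 95 cells in cluster 3, 6.48% of the class, held 29.2% of the cushion Myocd UMIs at 118 CPM, and its 700 cells in cluster 16 the same share at 14.6 CPM. Rgs5 in cushion-gated cells was 450.3 CPM in cluster 3, 382 in cluster 11 and 178 in cluster 16. In clusters 18, 21 and 22, with 134, 112 and 157 of these cells, the summed Rgs5 level was 2.82, 14.6 and 6.98 CPM. Over the libraries with 10 or more of these cells it ran from 0.770 to 4.78, 11.7 to 37.9 and 0 to 56.1 CPM. Only the range of cluster 18 lay wholly below the lowest crest mesenchyme library of 24.0 CPM.

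Cluster 18, led by Foxd1, Lum and Ebf2 and also without a name, had 403 CPM of Acta2, 604 of Tagln and 3.65 of Rgs5. Its Tagln ran from 375 to 1768 CPM over the 5 libraries with 10 or more cells. It was drawn unevenly from the libraries, with 1, 55, 26, 382, 362 and 200 of its 1026 cells from libraries 1 to 6. Cluster 22, named epicardium, had 503 CPM of Tagln and 3.05 of Rgs5. Outside heart muscle, Tagln was thus found both with high and with low Rgs5. The low summed levels stood above the 1.38 CPM of erythroid cells, but the library ranges overlapped. Rgs5 ran from 1.29 to 4.55 CPM in cluster 18, 0.152 to 8.30 in cluster 22 and 0.290 to 2.99 in erythroid cells.

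Among cardiomyocytes, most Rgs5 UMIs lay in 2 clusters, 62.0% of them in cluster 24 and 30.2% in cluster 3. Cluster 24 held 495 cardiomyocytes with 229 CPM of Rgs5, 618 of Myocd and 9039 of Acta2. Cluster 3 held 109 with 628 CPM of Rgs5, 409 of Myocd and 2044 of Acta2. In the 5 libraries with 10 or more of the latter cells, Rgs5 ran from 563 to 672 CPM, above the 173 to 307 of cluster 24. Acta2 there ran from 1857 to 2551 CPM, below the 8535 to 10290 of cluster 24.

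Among cardiomyocytes, those of cluster 9 stood apart in mitochondrial share. It held 121 cardiomyocytes with a median of 13924 UMIs and a median of 0.202% mitochondrial UMIs. Myocd in them was 31.8 CPM (24.3 to 40.9), with libraries from 10.9 to 44.4, while Acta2 was 7996, Tagln 2226 and Cnn1 286 CPM. The 130 other cardiomyocytes with at most 20000 UMIs had 3.49% mitochondrial UMIs, 548 CPM of Myocd, 4433 of Acta2 and 168 of Cnn1. The part of RNA quality in the low Myocd was not tested. These cells were singled out after their values had been seen, and in the 3050 remaining cardiomyocytes with over 20000 UMIs Myocd was 265 CPM.

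The mural gate found few cells. It asked for 3 of its 9 markers, Pdgfrb, Cspg4, Notch3, Abcc9, Kcnj8, Vtn, Higd1b, Ndufa4l2 and Heyl. It was passed by 23 cells, 11 of them at that minimum, and no library had 10. Of the 23, 6 held Neurog2 or Phox2a, genes of nerve cells, so the gate does not stand for a single cell type. Of the 5 members at 10 CPM, 4 were at least 2-fold higher than in crest mesenchyme, against 12.3% of all genes. Cnn1 and Myocd reached 10 CPM only in the mural cells, so they could not have counted as lower. Acta2 was 2436 CPM (2330 to 2546), Tagln 2367, Cnn1 78.7 (60.6 to 101) and Myocd 67.7 (51.0 to 88.1). Few cells carried these levels: 9 of the 23 had an Acta2 UMI and the median cell had 0, while the top 2 cells for each gene held 47.0% of the Acta2 UMIs and 72.7% of the Myocd UMIs. Without library 4 the log2 ratio to crest mesenchyme moved from 6.08 to 5.22 for Acta2, from 5.25 to 4.51 for Tagln and from 4.49 to 2.31 for Myocd. The stricter gate of 4 markers gave 7.18, 6.34 and 5.81. Rgs5 was lower, at 12.3 CPM from 10 UMIs, a ratio to crest mesenchyme of 0.410 (0.197 to 0.754), or -1.29 on the log2 scale. It was -2.42 without library 3 and -0.37 with 1 UMI per marker. Those 6 cells held 0 Acta2 UMIs. In the other 17 Acta2 reached 3371 CPM and Tagln 3274, and Acta2 ran from 70.9 to 5574 CPM over libraries, each with under 10 of these cells. Myh11 in the 23 cells rested on 7 UMIs in 2 cells, and stood at 55.9 CPM in library 6, 4.06 in library 5 and 0 in libraries 2 to 4.

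The other genes of the pathway were read from 5 lists with 52 genes. In cardiomyocytes against crest mesenchyme, 42 reached 10 CPM, of which 19 were at least 2-fold higher and 7 at least 2-fold lower, against 12.6% and 13.7% of all genes. The median log2 ratio was 0.89 against -0.25 for all genes. Each of these 26 lay on the same side in all 6 libraries. In cushion against crest mesenchyme, 18 of 45 were higher (10.6% of all genes) and 1 was lower (2.1%). In outflow against ventricular cells 14 of 43 were higher (8.6% of all genes) and 1 was lower (2.24%).

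**Figure D5:**
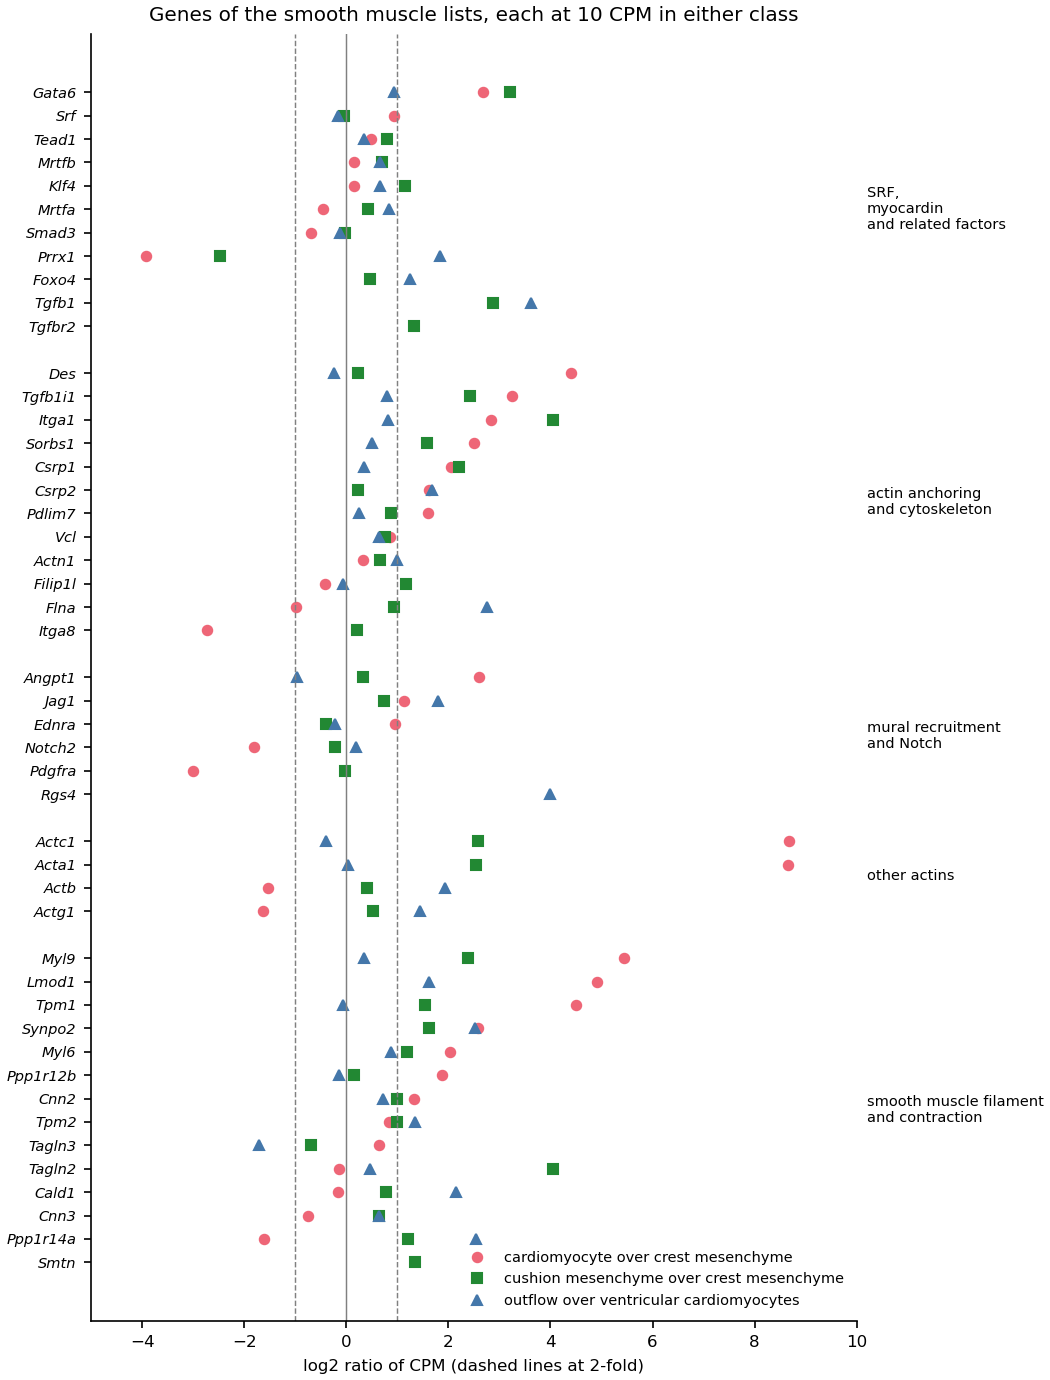
Log2 ratio of CPM for each listed gene that reached 10 CPM in either class, for cardiomyocytes over crest mesenchyme (circles), cushion over crest mesenchyme (squares) and outflow over ventricular cardiomyocytes (triangles). Dashed lines mark 2-fold; 19 of 42 circles lie beyond the upper line and 7 beyond the lower.

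Of 16 filament and contraction genes, 13 reached 10 CPM, 7 were higher in cardiomyocytes than in crest mesenchyme and 1 was lower. Myl9, the regulatory light chain of smooth muscle myosin, was 1358 against 31.3 CPM, a ratio of 43.3 (42.6 to 44.1). Lmod1, a leiomodin that nucleates actin filaments, was 46.1 against 1.52 CPM. Tpm1, a tropomyosin of both muscle kinds, was 22.6-fold higher (22.5 to 22.8). The lower gene was Ppp1r14a, which inhibits myosin phosphatase in smooth muscle, at 8.71 against 26.5 CPM. It was higher in cushion than in crest mesenchyme by 2.31-fold (2.22 to 2.41) and in outflow than in ventricular cells by 5.78-fold (4.96 to 6.77). Mylk, the kinase that starts smooth muscle contraction, and Actg2 stayed under 10 CPM in all 5 of the classes and subclasses compared. Tagln2, a transgelin of many cell types, was 734 CPM in cushion mesenchyme and 44.3 in crest mesenchyme, and 40.1 in cardiomyocytes.

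Of 12 genes of actin anchoring, 7 were higher in cardiomyocytes and 1 was lower. Des, the muscle intermediate filament desmin, was 672 against 31.8 CPM, and Tgfb1i1, a focal adhesion protein, 129 against 13.6. Itga1, an integrin that binds collagen, was 7.13-fold higher in cardiomyocytes (6.71 to 7.57) and 16.5-fold higher in cushion mesenchyme (15.5 to 17.5). Itga8, another integrin, was the lower one at 3.43 against 22.6 CPM. In outflow against ventricular cells, Flna (filamin, an actin cross-linker) was 6.80-fold higher (6.24 to 7.43) and Csrp2, a LIM protein of smooth muscle, 3.22-fold (3.18 to 3.26).

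Of 11 genes for SRF, factors that act with it and TGF-beta signals, 8 reached 10 CPM in cardiomyocytes or crest mesenchyme. Gata6, a GATA factor of heart and smooth muscle, was higher by 6.41-fold (6.25 to 6.57), and Prrx1, itself a marker in the crest gate, was lower. Srf was 23.7 against 12.4 CPM, a ratio of 1.91, higher in 6 of 6 libraries, and its other partners Mrtfa and Mrtfb stood at ratios of 0.730 and 1.11. In outflow against ventricular cells Srf had a ratio of 0.899 (0.819 to 0.985), where Myocd had 2.58, and Tgfb1, a ligand that drives smooth muscle genes, was 12.3-fold higher (9.90 to 15.3). Tgfb1 was also 7.37-fold higher in cushion than in crest mesenchyme (6.88 to 7.90).

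Of 9 genes of mural recruitment and Notch signalling, 5 reached 10 CPM in cardiomyocytes or crest mesenchyme. Jag1, a Notch ligand, and Angpt1, a ligand of the endothelial receptor Tek and here a marker of the atrial gate, were higher in cardiomyocytes. Pdgfra and Notch2, receptors, were lower. In outflow cells Jag1 was 50.2 CPM against 14.4 in ventricular cells, and Rgs4, a relative of Rgs5, was 12.4 against 0.783, a ratio of 15.8 (11.7 to 21.8).

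The other 4 actins parted by kind. Actc1 (cardiac) and Acta1 (skeletal) were 407-fold (399 to 415) and 402-fold (373 to 433) higher in cardiomyocytes than in crest mesenchyme, while the non-muscle actins Actb and Actg1 were at 0.345 and 0.321 of the crest level. In outflow against ventricular cells Actb was 3.81-fold (3.77 to 3.86) and Actg1 2.72-fold higher, beside 1.77-fold for Acta2 and 0.760 for Actc1. Actin genes have nearly the same coding sequence, and how reads that match several were counted is not given in the sources used here, so part of these counts may be split between them.

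Genes with the most similar profile to each member were ranked by Pearson's r of log2(CPM + 1) over the 14 classes with at least 50 cells, among 11934 genes. The classes share libraries and most genes of heart muscle peak together, so these r describe and carry no test. For Acta2 the nearest were Cnn1 (r = 0.956) and the atrial-type myosin light chains Myl4 and Myl7 (both 0.949). For Cnn1 they were Myocd (0.963), Acta2 and Ankrd1 (0.953), and for Myocd they were Cnn1, the potassium channel gene Kcnk3 (0.957) and Ankrd1 (0.947). Tagln lay nearest to Emp2 (0.934), Olfml2b (0.927) and Pakap (0.923). For Rgs5 the nearest were Synpo2 (0.895), Hand1 (0.888) and Dgkk (0.830), of which Hand1, a bHLH factor, was highest in cushion mesenchyme at 109 CPM. Myh11 lay nearest to Cspg4 (0.915), a marker of the mural gate, then Adcy5 (0.899) and Lpar3 (0.884), from few UMIs.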

How the data were processed

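Single-cell RNA libraries were made with a droplet 3′ kit from the cardiogenic region, per the labels' protocols. The deposited counts are whole UMI counts per gene and barcode that the authors pooled in 1 matrix. CASAVA 1.8, Cell Ranger 5.0.0, Seurat 4 and the build mm10 are named in the submitters' processing notes, without roles. Strand use is not given in the sources used here, nor is how reads with several matches were treated.

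From the counts, cells with 2500 or more genes and at most 10% mitochondrial UMIs were kept, gated by 17 marker lists and summed per class and library with Python 3.11.15. The matrix could not be split into the 3 vehicle and 3 streptozotocin samples, so no test over samples was made: a 2-fold difference of summed CPM, with at least 10 CPM in either class, was counted, and the libraries are shown. A gene at 10 CPM in a single class of a pair could count as higher there but not as lower. Intervals for ratios are exact binomial ones. Clusters were made with scanpy 1.11.5 (2000 variable genes, 30 principal components, 20 neighbours, resolution 1) without the 6 members. Scrublet called 466 doublets (1.30%), with 170, 89, 3, 17, 175 and 12 in libraries 1 to 6, where 0.8% per 1000 cells was expected. The called cells were kept and left out in an alternative, which tests little in libraries 3, 4 and 6. The fold calls were tested on simulated counts with changes of known size, and the gates on cells drawn from each class's own marker means. No doublets and no RNA of other cells were simulated, so this checks the calculation and not the identity of the cells.

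The members and lists were chosen with earlier results of these data known. Genes named are the members, the 52 genes of the 5 pathway lists and, per member, the 3 genes with the highest r; markers, cluster genes and genes named otherwise were picked beside this rule after values were seen.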

Additional observations from a re-analysis of the deposited data

How the results depend on the processing

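Counts at a 2-fold difference changed little under 19 alternative settings for members in cardiomyocytes, outflow and mural cells, and for pathway genes in cardiomyocytes. Of the 6 members, Myh11 included, 5 were 2-fold higher in cardiomyocytes than in crest mesenchyme, and 6 were when cells were thinned to 5000 UMIs. The counts of members and of pairs given here set no minimum CPM. No share over all genes is given at that rule, so these counts show only how far the settings moved them. The outflow count was 3 throughout, the mural count 5, or 4 after thinning, and the pathway count 19 to 24, the highest with median-of-ratios scaling, which moved the log2 ratio of all genes by 0.27. Leaving out each library gave 29 to 30 of 30 pairs of member and library higher in cardiomyocytes, against 35 of 36 with all libraries and 33 of 36 with clusters in place of gates. Of 443 recomputed ratios 442 kept their direction, and 197 moved by more than their counting interval. The exception was Rgs5 in cardiomyocytes over crest mesenchyme, 0.63 on the log2 scale and -0.14 with clusters in place of gates. The cause was not tested. The mural gate gave no value from clusters or from the median of libraries, since no cluster carried that name and no library had 10 such cells. Myh11 rested on 1100 UMIs in all, and whether low expression or depth limits it was not tested. Streptozotocin could not be tested against vehicle, because no library could be tied to a sample of either group. Cell classes come from the same libraries and are compared within each library, as values, and no paired test over libraries was made.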

Other observations

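Atrial cardiomyocytes with 2 or more Myh11 UMIs also differed from those without in genes outside the lists. The 5 with the highest fold among genes with enough UMIs were picked after their values were seen, and their UMIs came from few cells. Spock3, a matrix proteoglycan, was 58.2 CPM (47.2 to 71.0) in the 42 cells and 5.94 CPM in the 982 cells without Myh11, and 9 of the 42 held a UMI of it. Col1a1, a fibrillar collagen, was 72.6 against 15.1 CPM, from 15 cells. Kirrel3, an adhesion protein, was 47.4 CPM (37.5 to 59.0), against 10.0 CPM, from 10 of the 42 cells. Gabrb1, a GABA receptor subunit, was 60.6 against 16.1 CPM, from 12 cells. Smoc2, a secreted matrix protein, was 167 against 47.3 CPM, from 19 cells. No value per library is given, since a library held as few as 1 of these cells.

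In the 121 cardiomyocytes of cluster 9, where Myocd was low, Mrtfb was 13.8 CPM, against 67.8 CPM (57.0 to 80.1) in the other 130 cardiomyocytes with at most 20000 UMIs. Gata6 lay between 69.4 and 126 CPM over libraries in the former and between 174 and 287 CPM in the latter. Srf was 21.7 CPM (15.6 to 29.5) against 20.5 (14.8 to 27.7), intervals that overlap. Tnnt2 was 4931 against 2905 CPM. The gaps were narrower against the 3050 cardiomyocytes of other clusters with over 20000 UMIs. Mrtfb was 36.8 CPM in those, and Gata6 ran from 124.5 to 147.8 CPM over libraries, which overlaps the range of cluster 9. Rgs5 was 168 CPM in the 130 cells, 13.8 in cluster 9 and 45.2 in the 3050 cells. The part of chamber in these differences was not tested.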
